A study of Arabidopsis thaliana with 32 samples.

Results

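In the 35S:FIP373A line of Arabidopsis thaliana, 1458 of 4294 m6A peaks (34.0%) had no counterpart in either of the other peak tables pooled by genotype, those of 35S:FIP37 and tmk4. A peak was taken when it overlapped no peak of those tables by even 1 bp on the same chromosome. These 35S:FIP373A-only peaks lay in 1026 of the 2061 genes of their table. Of the remaining 2836 peaks, 2376 overlapped a 35S:FIP37 peak only, 69 a tmk4 peak only and 391 both. The peaks were thus chosen by the tables themselves, so their enrichment, their length and their distance from the other tables' peaks are described here without a test. Each table is 1 list per genotype for 2 replicates, so whether a peak recurred between replicates of the line cannot be told.

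m6A, N6-methyladenosine, is a methyl mark placed on messenger RNA while it is made. FIP37 is a subunit of the nuclear complex that writes it, and the mark is known to affect how long a transcript lasts and how it is processed. TMK4, a kinase with a receptor-like ectodomain, acts in auxin signalling at the cell surface, and the series title names phosphorylation of FIP37 by TMK4 and the m6A of genes that make auxin. The mark is read by proteins of the YTH family, called ECT in Arabidopsis.

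The series comprised 32 libraries from seedlings of 15 days, of which 20 were m6A immunoprecipitates and inputs with 2 replicates per group and 12 were RNA-seq libraries with 3 per group. The m6A groups were wild type with mock for 3 h, wild type with the synthetic auxin NAA at 50 µM, tmk4-1 with the same NAA treatment, 35S:FIP37 and 35S:FIP373A. For the 2 lines with 35S, a promoter active in most tissues, the labels give no treatment, nor do they say what the 3A form changes or whether native FIP37 is present. The RNA-seq groups were wild type and plants labelled fip37 LEC1:FIP37, each with mock or NAA, and LEC1 is a promoter of embryos. No RNA-seq library of the 35S lines or of tmk4 was analysed here, so more methylation per transcript and more transcript cannot be told apart for any peak below. The series text calls the replicates biological and the labels do not say that they came from separate cultures, so the p-values of limma rest on sample-to-sample spread that may be technical.

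The wild-type immunoprecipitates kept 6420713 to 6714976 tags and their inputs 6866684 to 7459284. Judged from the steps of low RPKM values, RNA-seq depth ran from 83.6% to 152% of that in wild-type mock replicate 1. FIP37 (AT3G54170) stood at 11.3, 12.4 and 11.3 RPKM (reads scaled to gene length and library size) in the wild-type mock libraries and at 57.9, 87.3 and 91.8 in the mock libraries labelled fip37 LEC1:FIP37. With NAA the values were 23.3, 20.8 and 11.3, and 58.4, 120.1 and 83.9. FIP37 was therefore higher, not lower, in every library with that label, and a value per gene does not separate a transgene from the native gene. All 4 shoot markers were present in every library, and their sum differed by group, at 24909 to 26615 RPKM in wild-type mock, 19790 to 21715 in wild-type NAA, 29172 to 36713 in labelled mock and 29994 to 34092 in labelled NAA. The 4 did not move together. RBCS-1A lay at 7800 to 8887 RPKM in wild-type mock and 13827 to 17563 in labelled mock, and RCA at 961 to 1470 and 2498 to 3454. In the same groups LHCB1.3 lay at 13764 to 14641 and 11456 to 14037, and LHCA1 at 1646 to 1759 and 1391 to 1659. The 3 dry-seed markers summed to at most 3.12 and the 3 flower markers to at most 0.883. The 3 root markers summed to 425 to 499 RPKM in wild-type mock, 232 to 319 in wild-type NAA, 838 to 1233 in labelled mock and 720 to 808 in labelled NAA, nearly all of it PYK10. The other 2 did not follow it. TIP2;3 lay between 16.9 and 20.7 RPKM in wild-type mock and at or under 2.11 in the other 9 libraries, and COBL9 between 1.99 and 2.52 in wild-type mock and at or under 1.39 in the others. Wild-type NAA replicate 3 lay apart from its group. In it 158 of the 1019 tested genes with a 35S:FIP373A-only peak (15.5%, against 9.47% of all tested genes) differed at least 2-fold from its 2 fellow replicates' mean, while the same count for those was 31 and 38. The heat-shock gene HSP17.6A stood at 79.0 RPKM there against 2.88 and 2.62. The part of shoot and root tissue and of that library in the results below was not tested beyond the values given.

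The 35S:FIP373A-only peaks were mostly short. In the pooled tables nearly all peaks measure a multiple of 50 nt on exons, and 1105 of the 1458 (75.8%) were a single step of 50 nt, against 987 of the 2836 other 35S:FIP373A peaks (34.8%). Only 131 reached 150 nt or more, against 1176 of the others. A share of 15.8% joined blocks of 2 or more exons, against 26.0%. The reciprocal set, the 1891 peaks of 35S:FIP37 that overlapped neither 35S:FIP373A nor tmk4 (39.7% of its 4762), was as short, with 77.3% at 50 nt. The 35S:FIP373A-only peaks fell on chromosomes 1 to 5 as 374, 208, 296, 238 and 342, and on the plus and minus strands as 707 and 751.

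By the authors' enrichment score, read as a linear ratio (the sources used here do not give its calculation), the 35S:FIP373A-only peaks had a median of 2.45, with a middle range from 1.91 to 3.29. The other 35S:FIP373A peaks had a median of 2.33. The upper end was longer among the 35S:FIP373A-only peaks, with 132 (9.05%) at 5 or more against 97 (3.42%), and a maximum of 37.8 against 13.5. Their support was weaker by the authors' score column, read as a p or q value, with a median of 1.36e-06 against 7.41e-10.

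**Figure D1:**
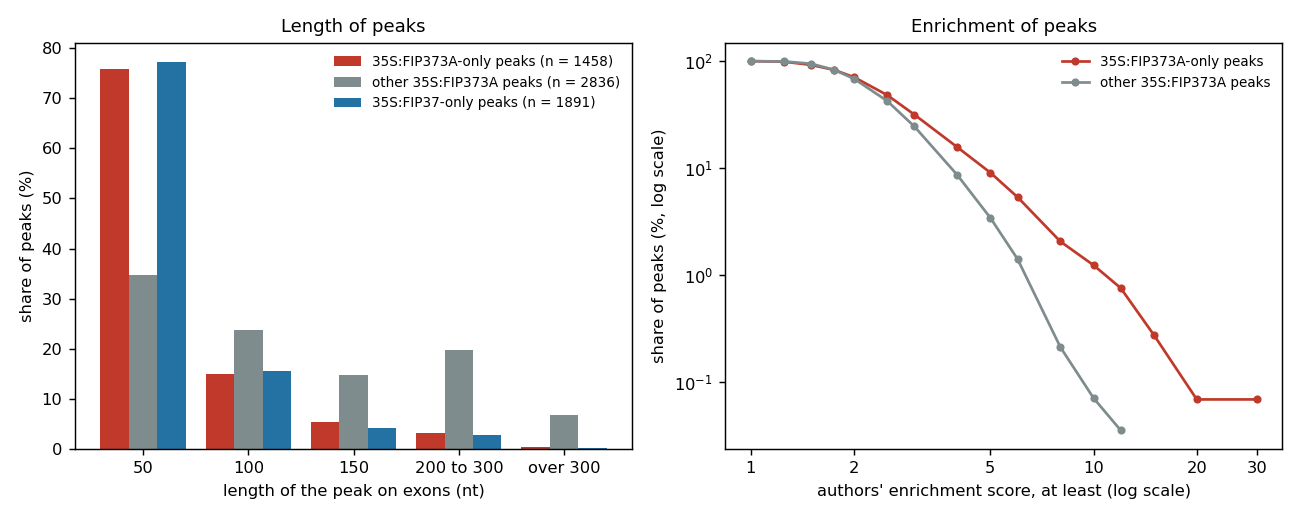
Length and enrichment of 35S:FIP373A peaks. Left, share of peaks (%) by length on exons (nt) for the 1458 35S:FIP373A-only peaks, the 2836 other 35S:FIP373A peaks and the 1891 peaks found in 35S:FIP37 alone. Right, share of peaks (%, log scale) at or above each value of the authors' enrichment score (log scale). Of the 35S:FIP373A-only peaks 75.8% are 50 nt long, and their curve stays above that of the other peaks from a score of 2.5 upward.

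The 35S:FIP373A-only peaks ranged from neighbours of a peak of another table to peaks far from any. Of the 1458, 227 (15.6%) touched such a peak with 0 bp between them and 345 (23.7%) lay within 50 bp. A further 132 lay over 50 and up to 200 bp away and 286 lay over 200 and up to 1000 bp away. The largest group, 695 peaks (47.7%), had over 1000 bp to the nearest one, and the median gap was 837 bp. Just inside the rule's limit, the 345 peaks within 50 bp had a median enrichment of 2.35. Just outside it, no peak was left out for an overlap under 50 bp, since peaks share the 50-nt grid. With 50 bp added to both sides of the other tables' peaks, 1231 peaks remained.

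The genes split into those marked in the other lines at another place and those not marked there. Of the 1026 genes, 636 (62.0%) held a 35S:FIP37 or tmk4 peak elsewhere in the gene, 585 of them a 35S:FIP37 peak and 203 a tmk4 peak, and 840 of the 35S:FIP373A-only peaks lay in them. The other 390 genes (38.0%), with 618 peaks, held none. In the 636 genes, 315 of the 840 peaks (37.5%) lay 5′ of all peaks of the other tables, 299 (35.6%) lay between or within their range, and 226 (26.9%) lay 3′ of all. For the reciprocal 35S:FIP37 peaks the same 3 shares were 32.9%, 27.7% and 39.5%. The 2 reciprocal sets shared 270 genes, 26.3% of the 1026 and 21.1% of the 1282 genes of the 35S:FIP37 set. Most genes held 1 such peak (734 genes), while 204 held 2, 58 held 3 and 30 held 4 or more.

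The 10 peaks with the highest enrichment, 1 per gene, were 50 nt long except that of PRA1B4. They were not the best supported by the authors' score column. Their scores ran from 1.33e-11 (UGT72E2) to 3.41e-06 (CNGC2), and the median of all 35S:FIP373A-only peaks was 1.36e-06. The highest, 37.8, lay in DIT1 (AT5G12860; chr5:4062040-4062089, minus strand), which encodes a 2-oxoglutarate/malate transporter of the plastid envelope. It was the most 5′ peak of its gene, and the other 2 peaks of the line there were shared with 35S:FIP37. Its score was 4.46e-07, against 2.25e-38 for the shared peak of enrichment 4.96. Next came CNGC2 (AT5G15410; chr5:5006833-5006882, minus strand; 17.9), a cyclic nucleotide-gated ion channel gene with 3 such peaks, GFT1 (AT5G19980; chr5:6750903-6750952, minus strand; 17.4), the Golgi GDP-fucose transporter, and TL20.3 (AT1G12250; chr1:4161264-4161313, plus strand; 17.3), a thylakoid lumen protein. AT5G11280 (chr5:3598413-3598462, plus strand) reached 14.4. LSM7 (AT2G03870; chr2:1181264-1181313, plus strand), a subunit of the LSm ring that binds RNA ends, reached 13.5. The prenylated Rab acceptor gene PRA1B4 (AT2G38360; chr2:16070415-16070564, minus strand) reached 13.2 on 150 nt. The monolignol glucosyltransferase gene UGT72E2 (AT5G66690; chr5:26625099-26625148, plus strand) reached 12.4, the fatty acid amide hydrolase gene FAAH (AT5G64440; chr5:25770236-25770285, plus strand) 12.2 and AT5G57330 (chr5:23220899-23220948, plus strand) 12.1. In DIT1, CNGC2, GFT1, TL20.3, LSM7, PRA1B4 and UGT72E2 the peak overlapped no wild-type peak, and the other 3 overlapped 1 to 3 of the 4 wild-type lists. In mock wild type these 10 genes stood between 4.20 and 64.6 RPKM.

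A few genes carried runs of these peaks. LOX2 (AT3G45140), the plastid 13-lipoxygenase that starts jasmonate synthesis, and ABCG40 (AT1G15520), an importer of abscisic acid, held 9 each and no peak of either other pooled table. In LOX2 the 9 spanned chr3:16525545-16529150 on the plus strand with enrichments from 1.3 to 1.67, and only the most 3′ of them overlapped wild-type peaks, in all 4 lists. In ABCG40 they spanned chr1:5333084-5338226 on the minus strand with enrichments from 1.79 to 2.83, and none overlapped a wild-type peak. ABCG40 RNA was low in wild type, at 1.07, 1.34 and 1.28 RPKM with mock and 0.687, 0.449 and 9.44 with NAA. The part of that level in the lack of wild-type peaks was not tested. AATP1 (AT1G80300), an ATP/ADP carrier of plastids, and BIR1 (AT5G48380), a receptor-like kinase that restrains immune responses, held 6 each and again no peak of the other pooled tables. In both, the most 3′ peak alone overlapped wild-type peaks, in 4 lists for AATP1 and in 3 for BIR1. AT2G29670 also held 6, interleaved with 3 peaks of 35S:FIP37. Runs of adjacent peaks in 1 gene share their transcript and are not independent.

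**Figure D2:**
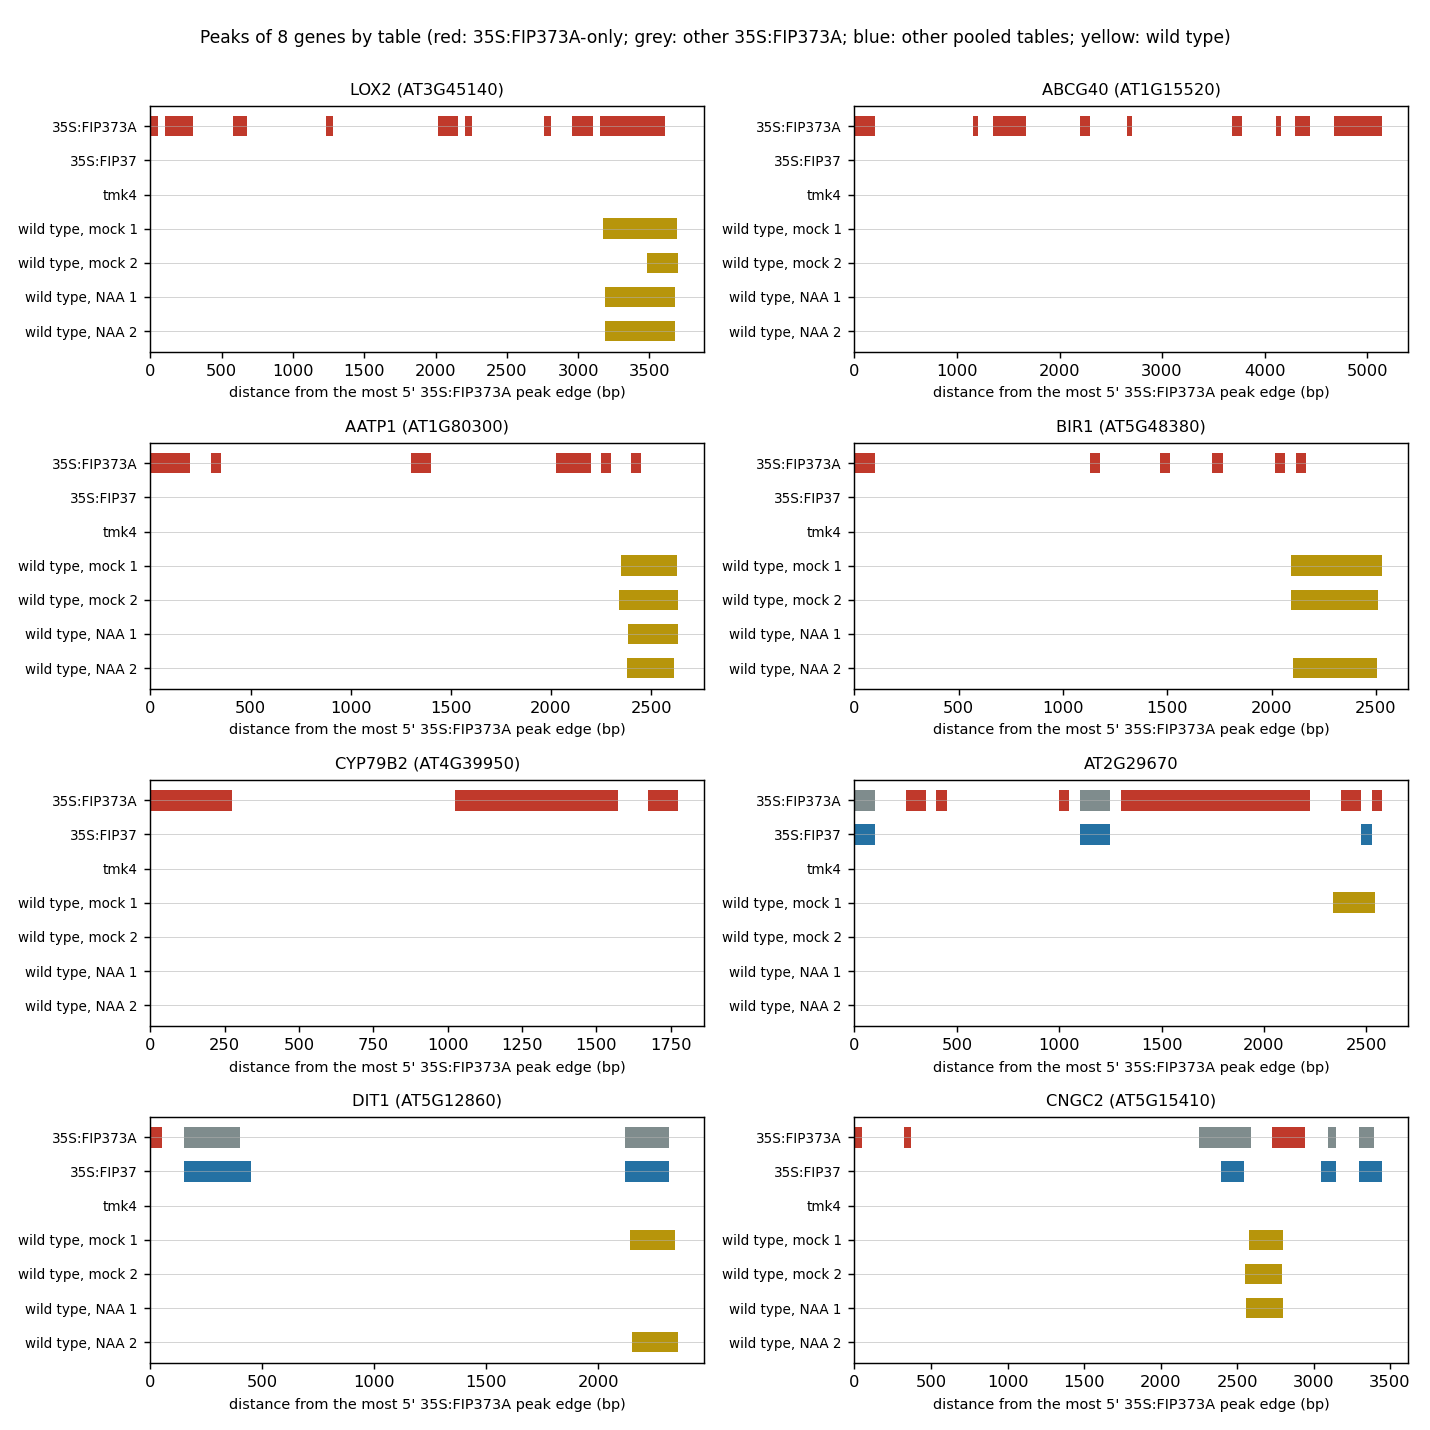
Maps of the peaks of 8 genes. Each row is 1 table or list, the x axis is the distance (bp) along the gene from the most 5′ 35S:FIP373A peak edge, and bars run from the start to the end of a peak with introns included (red, 35S:FIP373A-only; grey, other 35S:FIP373A; blue, 35S:FIP37; yellow, wild type). LOX2 and ABCG40 each show 9 red bars and no blue bar, and in LOX2 the wild-type peaks meet the most 3′ red bar alone.

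Wild-type seedlings offered a readout that the choice of peaks did not use. Of the 1458 peaks, 300 (20.6%, 95% Wilson interval 18.6% to 22.7%) overlapped a peak of at least 1 of the 4 wild-type lists, against 854 of the 2836 other 35S:FIP373A peaks (30.1%, 28.5% to 31.8%). By list the shares of the 35S:FIP373A-only peaks were 13.8% and 14.7% for mock and 10.3% and 13.9% for NAA. Those of the other peaks were 19.9% and 23.9%, and 18.0% and 22.6%. The 35S:FIP373A-only share was lower in 4 of 4 lists, and the intervals of the pair did not overlap in any of them. All 4 lists held 94 of the peaks (6.45%, 5.30% to 7.83%) against 12.4% of the others, and 1158 (79.4%) were in none. These intervals cover counting error only, since peaks of 1 gene and of 1 library are not independent. The wild-type lists came from MACS, whereas the sources used here do not give the caller of the pooled tables, and 10.9% to 13.2% of their 4469 to 6060 peaks overlapped any 35S:FIP373A peak.

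These shares were also taken by length and by transcript level. The 35S:FIP373A-only peaks had weaker scores than the other peaks (median 1.36e-06 against 7.41e-10), and the part of that in the shares was not tested. Among 50-nt peaks alone, a comparison added after the data were seen, the shares were 20.1% and 27%. In 4 groups of peaks by the wild-type mock RPKM of their genes, from low to high, the shares of the 35S:FIP373A-only peaks were 24.1%, 19.8%, 17% and 17.1%, and those of the other peaks 31.1%, 36.6%, 29.5% and 25.1%. The 35S:FIP373A-only share was the lower one in each of the 4. Peaks in genes with no 35S:FIP37 or tmk4 peak overlapped wild-type peaks more often (25.4%, 22.1% to 29.0%) than those in genes with one (17%, 14.6% to 19.7%). The wild-type peaks met by 35S:FIP373A-only peaks were of modest height, with a median fold enrichment of 1.65 to 1.81 by list against 1.86 to 1.99 over each whole list.

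No difference between the mock and NAA lists could be shown with 2 lists each. The mean share was 14.2% ± 0.63 (SD, n = 2 lists) with mock and 12.1% ± 2.52 (n = 2) with NAA (exact permutation test, two-sided p = 0.667, where 0.333 is the smallest that 2 against 2 can give). Both mock lists and no NAA list held 16 of the peaks, and both NAA lists and no mock list held 2. The 5 peaks with the highest enrichment that all 4 lists held lay in AT5G23250 (chr5:7832515-7832564, plus strand; 9), AT4G10110 (chr4:6309479-6309578, minus strand; 7.73), AT1G29310 (chr1:10254552-10254601, plus strand; 6.31), PAD4 (AT3G52430; chr3:19434146-19434195, plus strand; 6.05) and AT3G27390 (chr3:10133343-10133392, minus strand; 5.64). PAD4 encodes a lipase-like protein of defence signalling. None of these 5 genes held a peak of 35S:FIP37 or tmk4.

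**Figure D3:**
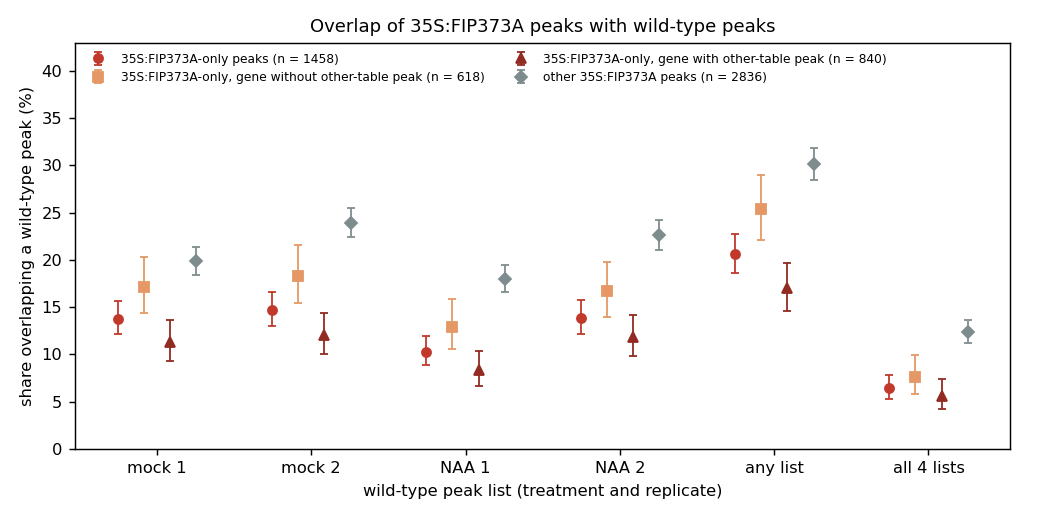
Share of 35S:FIP373A peaks (%) that overlap a wild-type peak by at least 1 bp, for each of the 4 wild-type lists, for any of them and for all 4. Points are shares and bars 95% Wilson intervals, for all 1458 35S:FIP373A-only peaks, for those in genes with and without a 35S:FIP37 or tmk4 peak, and for the 2836 other peaks. The 35S:FIP373A-only peaks lie below the other peaks in every column, and their 840 peaks in genes with a peak of another table lie lowest.

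By function, the genes of these peaks included many enzymes of metabolism. In classes set by keywords in the RefSeq names (assembly TAIR10.1, used for names alone), 73 of the 1026 genes (7.12%) were cytochrome P450, transferase or oxidoreductase genes. That class held 4.73% of the 1035 genes with other 35S:FIP373A peaks only and 2.34% of the tested genes that the table names. Chloroplast and photosynthesis genes made up 44 (4.29%) against 76 (7.34%) and 1.35%. Transcription factors made up 2.53%, against 3.2% of tested genes, and protein kinases and phosphatases 3.41% against 3.3%. These shares were not tested, and transcript level moved with them. The median level in wild-type mock was 47.8 RPKM for genes with a 35S:FIP373A-only peak, 77.8 RPKM for genes with other 35S:FIP373A peaks only and 9.47 RPKM for all tested genes. It was 67.9 RPKM in the genes that also held a 35S:FIP37 or tmk4 peak and 29.0 RPKM in those that held none.

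Of the genes that make auxin, the subject named in the series title, 7 of 26 held a 35S:FIP373A-only peak. Over all 18072 tested genes, 1019 did. They were the nitrilase genes NIT1 (AT3G44310) and NIT2 (AT3G44300), CYP79B2 (AT4G39950), which turns tryptophan into indole-3-acetaldoxime, the anthranilate synthase genes ASA1 (AT5G05730) and ASB1 (AT1G25220), the tryptophan synthase gene TSB1 (AT5G54810) and the aldehyde oxidase gene AAO1 (AT5G20960). In the list these were all the genes with any 35S:FIP373A peak, while 3 held a 35S:FIP37 peak and 0 a tmk4 peak. The peaks of tmk4 were fewer, in 1101 genes against 2061 for 35S:FIP373A and 2273 for 35S:FIP37. The 0 was not tested against that size. CYP79B2 had 3 peaks, of which the highest, 2.54, lay at chr4:18525142-18525417 (plus strand), and none overlapped a wild-type peak. ASB1 had 2, and that at chr1:8837281-8837667 (minus strand; 2.96) overlapped a peak in all 4 wild-type lists. NIT2 had 2 of low enrichment (1.65 at chr3:15983670-15984266, plus strand) and NIT1 had 1 (1.46 at chr3:15987167-15987216, plus strand). These 2 genes are neighbours and near-identical, and the sources used here do not say how reads that match both were counted, so their peaks and levels are uncertain. ASA1 (2.75), AAO1 (2.72) and TSB1 (1.51, the higher of 2 peaks) completed the group, with no wild-type overlap. The YUC and TAA1 genes of the main auxin route held no peak of the line. Of the 26 genes, 18 had a mean of at least 1 RPKM, and the part of transcript level in these absences was not tested.

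The other lists of auxin and m6A genes were short, and 1019 of all 18072 tested genes held such a peak. Few or none in such a list cannot be told apart from that share. Among 12 m6A readers, ECT2 (AT3G13460; chr3:4388343-4388392, minus strand; 3.83) and ECT3 (AT5G61020; chr5:24557769-24557818, minus strand; 2.56) held 1 each. Of 15 auxin transport genes only that of the efflux carrier PIN3 (AT1G70940; chr1:26743290-26743339, plus strand; 2.79) did, next to 4 other peaks of the line and 5 of 35S:FIP37. None of the 6 m6A writer, 5 eraser, 10 auxin conjugation, 24 perception and ARF, 25 Aux/IAA, 11 shoot meristem, 11 circadian clock and 4 heat-shock genes held one. Of the 5 eraser genes, 3 had a mean of at least 1 RPKM. Photosynthesis genes were often marked in the line (17 of 20), but 4 of them held a 35S:FIP373A-only peak. These were LHCB4.1, LHCB6, LHCA2 and RBCS-1A, each with 1 peak of 50 nt and an enrichment of 1.14 to 1.33.

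RNA-seq, which the choice of peaks did not use, was available for 1019 of the 1026 genes above the filter of a mean of 1 RPKM. With mock treatment, 38.8% of all tested genes differed between the libraries labelled fip37 LEC1:FIP37 and wild type (limma, adjusted p under 0.05), and 472 of the 1019 did (46.3%). Of these, 235 were higher (23.1%, against 15.3% of all genes) and 237 lower (23.3%, against 23.5%). In the 385 tested genes with no 35S:FIP37 or tmk4 peak, 108 were higher (28.1%) and 76 lower. In the 634 with such a peak, 127 were higher and 161 lower. Of 1025 genes with other 35S:FIP373A peaks only, 484 were called (47.2%, near the 46.3% of the 1019), with 159 higher (15.5%) and 325 lower. The split of the 1019 depended on scaling, with 276 higher and 216 lower under median-ratio scaling and 307 and 197 under quantile normalization. All tested genes moved too, with 3699 higher (20.5%) and 4045 lower under median-ratio scaling and 3589 (19.9%) and 4217 under quantile normalization.

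All 7 auxin biosynthesis genes with a 35S:FIP373A-only peak rose in the libraries labelled fip37 LEC1:FIP37 with mock, of 8 that rose and 3 that fell among the 18 of that list tested. Over all tested genes 15.3% rose and 23.5% fell. The YUC and TAA1 genes of the main auxin route are not among the 7. CYP79B2 stood at 26.7, 27.5 and 31.8 RPKM in wild-type mock and at 152, 364 and 249 in the labelled libraries (log2 fold change of RPKM + 1, 3.02, SE 0.53, limma adjusted p = 0.000915). NIT2 stood at 87.5, 80.5 and 60.4 RPKM and at 769, 956 and 608 (3.33, SE 0.20, adjusted p = 1.03e-06). NIT1 went from 238, 214 and 223 to 1070, 910 and 1237 RPKM (2.24, SE 0.21, adjusted p = 1.54e-05). In each of the 3 genes the groups did not overlap. In such whole-seedling RNA, more cells of a type and more RNA per cell cannot be told apart. ASB1 (1.66, SE 0.24, adjusted p = 0.000278), AAO1 (1.56, SE 0.16, adjusted p = 2.97e-05), ASA1 (1.43, SE 0.34, adjusted p = 0.00558) and TSB1 (1.36, SE 0.27, adjusted p = 0.00178) rose less, also without overlap between groups. In these 4 the second labelled library was the highest, at 121 RPKM for ASB1 against 72.6 and 71.5, for example. The root marker PYK10 was also higher in the labelled mock libraries and the root markers TIP2;3 and COBL9 lower, and the part of root tissue in these rises was not tested. The auxin carrier gene PIN3 moved the other way, from 122, 120 and 149 to 76.9, 62.1 and 83.4 RPKM (-0.81, SE 0.15, adjusted p = 0.00118). Neither reader gene was called, ECT3 standing at 36.7, 38.8 and 38.3 against 47.5, 51.2 and 51.1 RPKM (0.39, SE 0.15, adjusted p = 0.0624).

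Among all genes with a 35S:FIP373A-only peak, the largest rises in that comparison were in FOX2, SAG13, LOX2 and PER52. FOX2 (AT1G26390), an FAD-linked oxidoreductase gene, stood at 1.23, 1.03 and 1.04 RPKM in wild-type mock and at 49.7, 243 and 105 in the labelled libraries (5.71, SE 0.47, limma adjusted p = 6.82e-06). SAG13 (AT2G29350), a gene induced in senescence, went from 3.28, 2.86 and 2.36 to 78.8, 262 and 160 (5.30, SE 0.37, adjusted p = 2.62e-06). LOX2 went from 14.9, 12.7 and 15.3 to 289, 242 and 499 (4.43, SE 0.42, adjusted p = 1.56e-05), and the peroxidase gene PER52 (AT5G05340) from 4.12, 4.66 and 5.22 to 69.3, 189 and 105 (4.31, SE 0.59, adjusted p = 0.000168). These 4 genes held no peak of 35S:FIP37 or tmk4. ABCG40, with its 9 peaks, stood at 1.07, 1.34 and 1.28 RPKM and at 5.82, 68.5 and 51.6 (3.71, SE 0.88, adjusted p = 0.00575), so the first labelled library lay far below the other two. Of the 3 other genes with the most peaks, AATP1 (0.57, adjusted p = 0.18), AT2G29670 (0.95, adjusted p = 0.0744) and BIR1 (-0.07, adjusted p = 0.759) were not called.

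The largest falls were in AT1G66180, ASN1, AT1G62480 and MLP34. AT1G66180, with 3 such peaks, went from 664, 887 and 954 to 182, 94.0 and 109 RPKM (-2.73, SE 0.27, limma adjusted p = 2.2e-05), and the asparagine synthetase gene ASN1 (AT3G47340) from 588, 734 and 708 to 171, 174 and 116 (-2.15, SE 0.27, adjusted p = 8.7e-05). AT1G62480 (1316, 1805 and 1475 RPKM against 395, 447 and 311, adjusted p = 2.71e-05) and the major latex-like protein gene MLP34 (AT1G70850; -1.99, SE 0.37, adjusted p = 0.0012) followed. Of the genes with the highest peak enrichment, LSM7 fell (-0.66, SE 0.11, adjusted p = 0.000801) and AT5G57330 rose (0.60, SE 0.17, adjusted p = 0.0128), and the latter lost its call without the third labelled mock library (adjusted p = 0.06). AT3G27390, present in all 4 wild-type lists, fell by 0.95 on the log2 scale (SE 0.12, adjusted p = 0.000106). The photosynthesis genes RBCS-1A (0.94, adjusted p = 0.000935) and LHCB6 (0.44, adjusted p = 0.0296) rose, while LHCB4.1 (0.04) and LHCA2 (0.03) were not called. RBCS-1A is itself 1 of the 4 shoot markers, so their higher sum in the same libraries is not a separate measure. Of the other shoot markers RCA was higher there, while LHCB1.3 and LHCA1 were not. The part of shoot tissue in these values was not tested. RBCS-1A lost its call with no filter on low values (adjusted p = 0.107), and LHCB6 in 4 of the 12 fits that left out 1 library (adjusted p = 0.084 to 0.106). RBCS-1A belongs to a family of near-identical genes, so its level is uncertain.

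**Figure D4:**
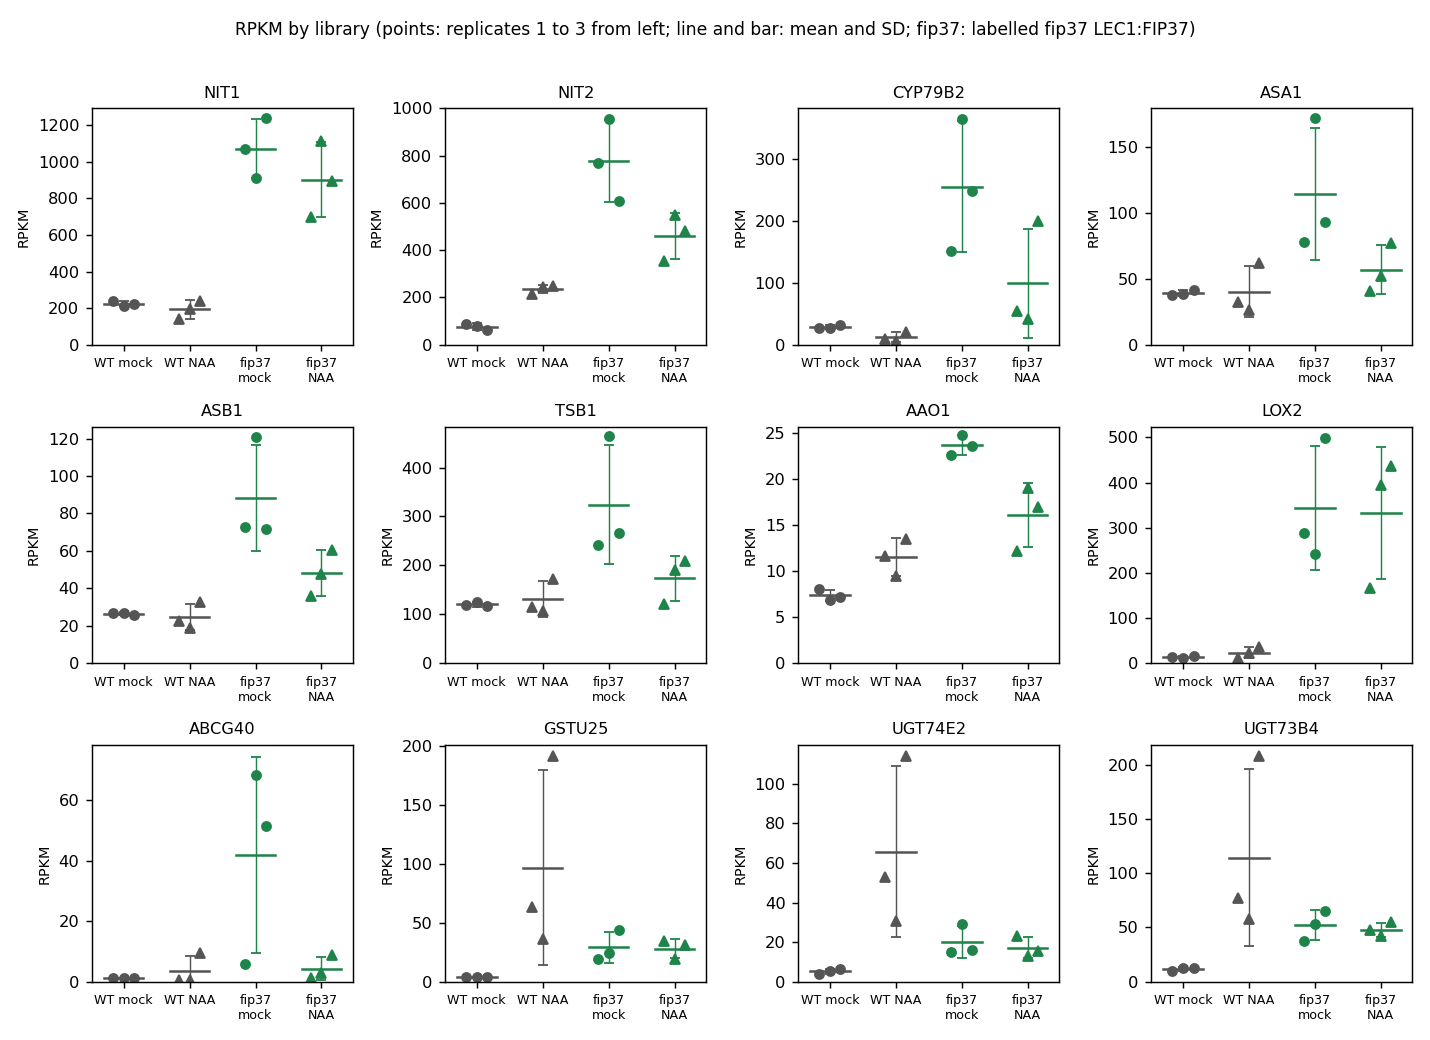
RPKM of 12 genes with a 35S:FIP373A-only peak in the 12 RNA-seq libraries, in 4 groups of 3 (fip37, libraries labelled fip37 LEC1:FIP37). Points are replicates 1 to 3 from left to right, lines are means and bars are SD, cut at 0 where they would go below it. The 7 auxin biosynthesis genes are higher in every labelled mock library than in any wild-type mock library, and GSTU25, UGT74E2 and UGT73B4 rise with NAA in wild type, most in the third library.

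NAA in wild type called a share of the genes of these peaks near that of all genes, with 8.35% of all tested genes and 110 of the 1019 (10.8%), of which 51 were higher and 59 lower. In the genes without a 35S:FIP37 or tmk4 peak 31 of 385 rose (8.05%, against 3.35% of all genes) and 17 fell. In those with such a peak 20 of 634 rose (3.15%) and 42 fell, and in genes with other 35S:FIP373A peaks only 26 of 1025 rose (2.54%) and 91 fell. Under median-ratio scaling the split of the 1019 turned to 61 higher and 39 lower, and that of all tested genes from 605 and 904 to 872 and 683. The 110 became 277 without the third NAA library, and 53, 52, 41 and 59 without mock replicate 1, 2 or 3 or NAA replicate 2. In the same fits the 1509 called over all tested genes became 4119, and 651, 632, 477 and 679. Wild-type mock libraries are shared between this comparison and that of the genotypes.

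The largest rises with NAA in wild type among the genes of these peaks were in GSTU25, UGT74E2, AT4G08555 and CYP81D11. GSTU25 (AT1G17180), a glutathione transferase gene, went from 4.41, 4.05 and 4.20 to 63.4, 36.0 and 192 RPKM (3.89, SE 0.48, limma adjusted p = 0.000574). UGT74E2 (AT1G05680), whose enzyme glucosylates the auxin indole-3-butyric acid, went from 4.1, 5.25 and 6.24 to 52.8, 30.5 and 114 (3.24, SE 0.40, adjusted p = 0.000574). AT4G08555 went from 16.9, 14.4 and 13.6 to 73.6, 104 and 371 (3.2, SE 0.47, adjusted p = 0.00198), and the cytochrome P450 gene CYP81D11 (AT3G28740) from 11.05, 11.8 and 14.5 to 56.0, 54.4 and 381 (2.99, SE 0.55, adjusted p = 0.0072). The groups did not overlap in any of the 4, but the genes were chosen as the largest called rises here, so this adds no support. In all 4 genes the third NAA library was the highest. Each call held without that library. Of the auxin biosynthesis genes above, NIT2 rose, to 216, 244 and 246 RPKM (1.63, SE 0.20, adjusted p = 0.000574). The other 6 were not called, AAO1 among them (0.57, adjusted p = 0.0507).

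The falls with NAA in wild type were smaller. IPMI1 (AT3G58990), a subunit gene of isopropylmalate isomerase, went from 9.45, 10.6 and 10.5 to 4.01, 1.96 and 1.58 RPKM (-1.73, SE 0.25, limma adjusted p = 0.00162). GASA1 (AT1G75750), for a gibberellin-regulated peptide, went from 608, 640 and 531 to 261, 226 and 180 (-1.43, SE 0.25, adjusted p = 0.00584). The chlorophyll synthesis gene PORB (AT4G27440) went from 355, 369 and 405 to 136, 111 and 185 (-1.41, SE 0.19, adjusted p = 0.00101). UGT72E2 (-1.27, SE 0.27, adjusted p = 0.0135) and CNGC2 (-0.76, SE 0.17, adjusted p = 0.0206), both among the 10 with the highest peak enrichment, also fell. UGT72E2 lost its call without the first mock or second NAA library (adjusted p = 0.0613 and 0.0518), and CNGC2 without any 1 mock library or the second NAA library (adjusted p = 0.0523 to 0.0816).

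NAA treatment of the plants labelled fip37 LEC1:FIP37 called 0.437% of all tested genes (0.376% higher and 0.0609% lower) and 3 of the 1019. The expansin gene EXPA3 (AT2G37640) rose from 23.6, 18.7 and 20.5 to 33.2, 35.8 and 33.1 RPKM (0.68, SE 0.12, limma adjusted p = 0.0277). OSM34 (AT4G11650), for an osmotin-like protein, fell from 270, 587 and 375 to 134, 184 and 169 (-1.27, SE 0.23, adjusted p = 0.0351). FLS5 (AT5G63600), of the flavonol synthase family, fell from 48.2, 60.1 and 50.2 to 30.7, 34.3 and 26.9 (-0.77, SE 0.14, adjusted p = 0.0371). None of the groups overlapped, but the 3 genes were chosen by their calls here, so this adds no support. The calls were lost in 8, 9 and 10 of the 12 fits without 1 library (adjusted p = 0.059 to 0.168, 0.0517 to 0.136 and 0.0514 to 0.199). The count of 3 became 18 without the third wild-type NAA library, 5 without the first labelled mock library, 1 without the second wild-type NAA or the third labelled mock library, and 2 without the third labelled NAA library. It was 0 without any 1 wild-type mock library, the second labelled mock library or the first or second labelled NAA library. Over all tested genes the count went from 79 to 201 without the third wild-type NAA library. It lay between 31 and 66 without each other library just named. At an unadjusted p under 0.05, 151 of the 1019 and 1502 of all 18072 tested genes were called.

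By a test of the difference itself, the NAA effect was unlike in the 2 genotypes at 1.69% of all tested genes and at 42 of the 1019 (4.12%). Of the 42, 36 had a lower and 6 a higher log2 fold change in the labelled libraries (3.53% and 0.589%, against 1.06% and 0.636% of all genes). The calls lay mostly in genes without a 35S:FIP37 or tmk4 peak, at 28 of 385 (7.27%), of which 24 were lower. In genes with such a peak it was 14 of 634 (2.21%), and in genes with other 35S:FIP373A peaks only 20 of 1025 (1.95%). This count moved with single libraries. Without the third wild-type NAA library 172 of the 1019 were called (16.9%), near the 17.2% of genes with other 35S:FIP373A peaks only, and all genes gave 12.3%. The genes without a peak of another pooled table then gave 82 of 385 (21.3%), of which 17.1% of the 385 were lower, against 7.32% of genes with other peaks only. Over all tested genes the count went from 306 to 117, 86 and 68 without wild-type mock replicate 1, 2 or 3. It was 149 without the second wild-type NAA library and 114 without the second labelled mock library. Without labelled NAA replicate 1, 2 or 3 it was 160, 153 and 147. The 42 became 17, 9 and 5 without wild-type mock replicate 1, 2 or 3 and 23 without the second wild-type NAA library. It was 18 without the second labelled mock library, and 17, 19 and 18 without labelled NAA replicate 1, 2 or 3. With no filter on low values it was 23 of the 1021 genes then tested, and 192 of all 26043. Under quantile normalization 19 were higher and 37 lower, while the split of all tested genes turned from 115 and 191 to 257 higher and 236 lower.

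UGT74E2 and NIT2 were the named genes whose difference held in every fit that was run. For NIT2 the wild-type rise was 1.63, and its NAA values in the labelled libraries were 356, 547 and 482 RPKM, against 769, 956 and 608 with mock there (difference of log2 fold changes -2.38, SE 0.28, limma adjusted p = 0.00363). UGT74E2 stood at 23.1, 13.1 and 15.5 RPKM with NAA and 14.9, 29.3 and 15.9 with mock in the labelled libraries, where the groups overlapped (-3.42, SE 0.56, adjusted p = 0.0146). GSTU25 (-3.90, SE 0.68, adjusted p = 0.0184), UGT73B4 (AT2G15490; -3.06, SE 0.52, adjusted p = 0.0165) and the pectin methylesterase gene PME17 (AT2G45220; -2.81, SE 0.55, adjusted p = 0.0298) also had a larger negative difference than NIT2. In GSTU25, UGT74E2 and UGT73B4 the mock level was already higher in the labelled libraries (log2 2.46, 1.71 and 2.05). Of the auxin biosynthesis genes AAO1 was also called (-1.12, SE 0.23, adjusted p = 0.0355), and it lost the call in 9 of the 12 fits without 1 library (adjusted p = 0.0531 to 0.112).

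**Figure D5:**
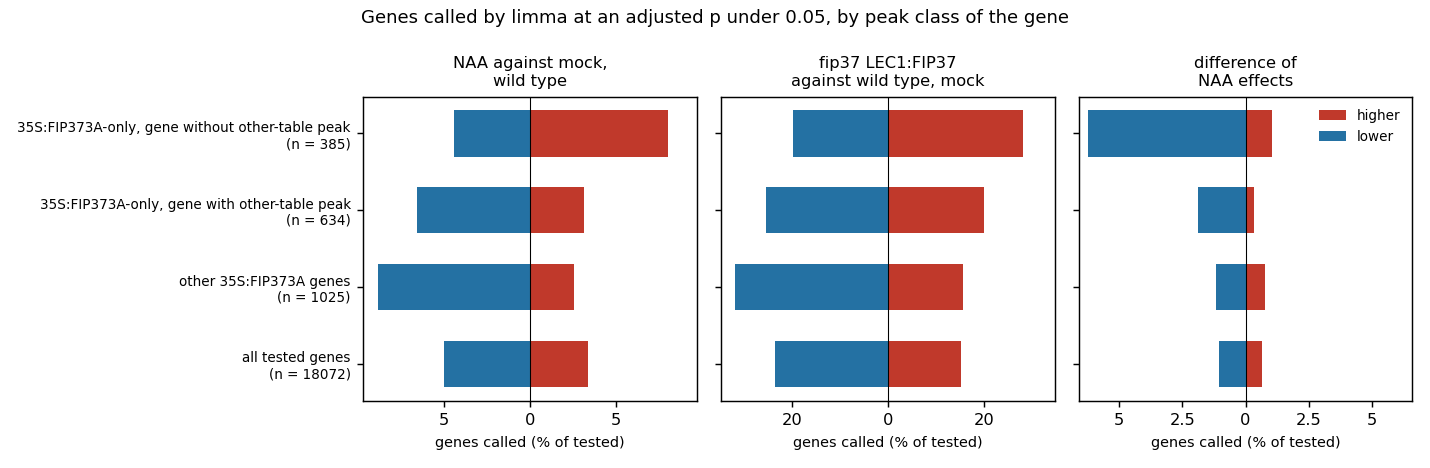
Share of tested genes (%) called by limma at an adjusted p under 0.05, higher to the right in red and lower to the left in blue. Rows are genes with a 35S:FIP373A-only peak and no peak of another pooled table (385), those with one (634), genes with other 35S:FIP373A peaks only (1025) and all tested genes (18072), and each panel has its own scale. The first row has the largest share of higher calls for NAA in wild type (8.05%) and for the genotypes (28.1%), and of lower calls for the difference between genotypes (6.23%).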

How the data were processed

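STAR 2.5.3a and the TAIR10 build are named in the submitters' processing notes, and coordinates are those of the files, counted from 1. Wild-type peaks were called by the authors with MACS 2.2.6, each replicate against its own input, with 200-nt extension, 1 duplicate kept and a q-value of 0.05, per the file headers. Each list as deposited holds a pileup signal, −log10 of p and of q, and a fold enrichment. The pooled tables as deposited give an enrichment ratio and a score whose values look like a p-value or q-value. The sources used here do not give their caller, its settings or how replicates were joined. Block sizes had lost their commas at 177 peaks of the 35S:FIP373A table and were restored from the values, which changes lengths only.

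The RPKM table per gene is used as deposited, and the sources used here do not give the counting tool or its treatment of shared reads. limma 3.58.1 (R 4.3.3, limma-trend) was run on log2(RPKM + 1), which understates changes of low genes, on the 18072 of 34262 genes whose mean reached 1 RPKM. One model held all 12 libraries, and p-values were Benjamini-Hochberg adjusted over all 18072. On simulated data with NAA in wild type, 78% of planted log2 changes of 1 and 95% of 2 were called, with 7 unchanged genes called. The simulated noise had the same spread in all libraries, so none lay apart as the third wild-type NAA library did. These rates need not hold for the real comparison. No read totals come with the table, so no counting interval is given for RPKM.

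Same-numbered RNA-seq replicates did not deviate together in every pair, so no block was used. Genes were named by rule: the 10 highest enrichments, every gene of the 12 gene lists, the 4 largest called changes each way per comparison, the 5 highest with all 4 and with no wild-type lists, and the 5 genes with most peaks. All 1026 genes matched the RefSeq table. The peaks, gene lists and comparisons were chosen with earlier results of these data known. No genome was used, so motifs, transcript regions and sequences are not reported. Alternatives were another pseudocount, filter, scaling, block, overlap or stricter list, and leaving out each library. Python 3.11.15, NumPy 2.4.6, pandas 2.3.3, SciPy 1.17.1 and matplotlib 3.10.9 were used.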

Additional observations from a re-analysis of the deposited data

Results flagged for a closer look

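At 10 named genes of 35S:FIP373A-only peaks the NAA response differed between wild type and the libraries labelled fip37 LEC1:FIP37 by limma's test of the difference, adjusted over all genes tested. Values are differences of log2 fold changes, labelled minus wild type, with 3 libraries per group.

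A lower response in the labelled libraries was found for GSTU25 (-3.90, adjusted p = 0.0184; 3.89 in wild type and -0.02 in the labelled libraries), UGT74E2 (-3.42, adjusted p = 0.0146; 3.24 and -0.18) and UGT73B4 (-3.06, adjusted p = 0.0165; 2.97 and -0.09). PME17 followed (-2.81, adjusted p = 0.0298; 1.26 and -1.55), then NIT2 (-2.38, adjusted p = 0.00363; 1.63 and -0.75) and AAO1 (-1.12, adjusted p = 0.0355; 0.57 and -0.55).

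A higher value in the labelled libraries was found for C/VIF2, an inhibitor gene of vacuolar invertase (1.33, adjusted p = 0.0271; -1.26 and 0.08), PORB (1.31, adjusted p = 0.0336; -1.41 and -0.10), AT3G54400 (1.13, adjusted p = 0.0271; -0.47 and 0.66) and EXPA3 (1.02, adjusted p = 0.0146; -0.33 and 0.68).

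In the fits that left out 1 of the 12 libraries, the call ended in 1 for EXPA3 (adjusted p = 0.0527) and UGT73B4 (0.0504), 3 for GSTU25 (0.0515 to 0.0611), 5 for PME17 (0.0616 to 0.101), 6 for AT3G54400 (0.057 to 0.0946), 7 for C/VIF2 (0.0508 to 0.0946), 9 for AAO1 (0.0531 to 0.112) and 10 for PORB (0.0513 to 0.113). It held in all 12 for NIT2 and UGT74E2.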

How the results depend on the processing

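The number of 35S:FIP373A-only peaks was 1464 with an overlap of 50% of the shorter peak, 1450 with stricter lists, 1527 against the 35S:FIP37 table alone and 1231 with 50 bp of padding. The share that overlapped a wild-type peak was 17.1% with an overlap of 50% of the shorter peak, 12.4% where both replicates of a treatment had to hold it, 14.7% at a −log10 q of at least 5, and 18.4% to 20.03% without 1 list. For genes called over all tested and over those of the peaks, leaving out 1 library gave 477 to 4119 and 41 to 277 for NAA in wild type, 31 to 201 and 0 to 18 for NAA in the labelled libraries, 5185 to 8851 and 367 to 608 for the genotypes, and 68 to 2231 and 5 to 172 for the difference of NAA effects. Quantile normalization gave 125 and 5 for NAA in the labelled libraries and 493 for the difference over all genes. With no filter the difference gave 192 and 23. Each upper value of these gene counts came without the third wild-type NAA library, and fits without a library also have fewer samples. Direction did not reverse in any of these settings for the called results of named genes, but 15 of 56 lost the call without at least 1 library. With no filter on low values, OSM34 lost its NAA call in the labelled libraries (limma adjusted p = 0.0625). LHCB6 (0.052) and RBCS-1A (0.107) lost that of the genotypes, and AAO1 (0.0562), PORB (0.0603) and PME17 (0.0568) that of the difference. Median-ratio scaling ended the difference calls of PORB (0.051) and C/VIF2 (0.0616), and quantile normalization the genotype call of LHCB6 (0.0758). With the replicate number as a block the counts were 1352 and 102, 64 and 3, 6810 and 469, and 264 and 37; EXPA3 with NAA in the labelled libraries (adjusted p = 0.0677) and AAO1 for the difference (0.052) lost their calls. Same-numbered wild-type mock and NAA libraries had correlated deviations of 0.279, -0.0458 and 0.296, and the labelled ones 0.397, -0.103 and 0.0754. Wild-type mock against labelled NAA gave 0.0938, 0.135 and 0.0899. Wild-type NAA against labelled mock gave -0.0654, -0.0238 and -0.00735. The number was therefore not used as a pairing, but a partial pairing is not excluded. Transcript region, sequence motif and assignment to genes by a reference annotation were not run, for want of a genome and annotation of the build.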

Other observations

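Defence genes formed a small class among the genes of 35S:FIP373A-only peaks, set by keyword and looked at after its values were seen. It held 6 genes (0.585%, against 0.193% of genes with other 35S:FIP373A peaks only and 0.161% of the tested genes that the table names), namely PR1, PR5, BGL2, HEL, CHI-B and DRP1E. PR1, PR5 and BGL2 are markers of the salicylic acid response, and these 3 and CHI-B, a basic chitinase gene, held no peak of 35S:FIP37 or tmk4. In the mock libraries labelled fip37 LEC1:FIP37 the hevein-like gene HEL rose against wild type (log2 2.25, SE 0.28, limma adjusted p = 8.77e-05; 60.3, 62.5 and 60.0 against 254, 406 and 243 RPKM), as did CHI-B (0.94, SE 0.31, adjusted p = 0.0294). The other 4 were not called. PR1 stood at 31.4, 106 and 3.55 RPKM in the labelled mock libraries against 6.07, 10.2 and 8.31 in wild type, so the groups overlapped.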
